A study of Mus musculus with 12 samples.

Results

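The nuclear-encoded subunits of the mitochondrial respiratory chain and of ATP synthase were measured in mouse bone marrow-derived macrophages, with and without Dicer1, at rest and after lipopolysaccharide (LPS). Members were the protein-coding genes whose symbols begin with Nduf (the Ndufaf assembly factors left out), Uqcr, Cox4 to Cox8 or Atp5, together with Sdha, Sdhb, Sdhc, Sdhd, Cyc1 and Cycs. A member also needed at least 10 counts in at least 3 of the 12 libraries. Of 87 genes with such symbols, 81 met this minimum, out of 46078 genes listed in the files. They comprised 36 genes of complex I, 4 of complex II, 9 of complex III, the cytochrome c gene Cycs, 14 of complex IV and 17 of complex V. All 81 were among the 13837 genes tested.

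The macrophages were grown from marrow of male C57BL/6 mice for 7 days with 30% L929 supernatant, a source of M-CSF and GM-CSF, and 20% serum, and were then moved to serum-free medium. Every mouse was ApoE-/-, so no group has a working Apoe gene, and every culture received ethanol overnight. Control cells are titled LysMcre/+;Dicer+/+;ApoE-/- and Dicer KO cells LysMcre/+;Dicerfl/fl;ApoE-/-, with the controls described as littermates, while the genotype field calls the controls wildtype. Cre is driven from the LysM (Lyz2) locus, which is active in myeloid cells, and removes Dicer1, the enzyme that cuts microRNA precursors. Each genotype was given PBS (vehicle) or LPS for 6 h, at a dose given as 100 ng/ul whose unit could not be checked, with 3 libraries in each of the 4 groups. No label ties the replicates to separate mice, and p-values therefore reflect only the spread between these libraries, which may be technical. The labels read here give no ages.

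The respiratory chain passes electrons from NADH (complex I) and succinate (complex II) to coenzyme Q, and on through complex III, cytochrome c and complex IV to oxygen, while complexes I, III and IV pump protons that drive ATP synthase (complex V). Most subunits are encoded in the nucleus and are assembled with a small set encoded in mitochondrial DNA. Macrophages activated by LPS are known for a shift towards glycolysis, for use of succinate and of reverse electron flow at complex I in inflammatory signalling, and for remodelling of complex IV by the inducible NMES1 protein.

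Gene counts per library ran from 16172600 to 18886948. Levels are given as CPM, which are counts scaled to a common library size by the TMM method (trimmed mean of M values). That method sets the bulk of genes at no change. The TMM factors ran from 0.707 in Dicer KO LPS to 1.31 in control vehicle, so the choice of scale bears on every small change reported here. Scaled to library totals instead, the median of all genes moved by -0.13 on the log2 scale for Dicer KO in vehicle, by -0.35 for Dicer KO in LPS, by -0.52 for LPS in control cells, by -0.75 for LPS in Dicer KO cells and by -0.23 for the difference between the LPS responses. Each library was made from 500 ng RNA, so neither the number of cells nor the RNA per cell can be read from either scale. Why the scales differ was not tested. A library of each vehicle group lay far from its replicates, control replicate 3 and Dicer KO replicate 2, with a chi-square per degree of freedom of 7.87 to 13.2 in the pairs that hold them against 2.21 to 2.43 for the other pair of each group. Dicer1 averaged 43.7 CPM in controls against 19.7 in Dicer KO cells with vehicle, and 49.4 against 15.5 CPM after LPS, with no overlap between genotypes. Lyz2, the gene that holds the Cre insertion, averaged 5714 CPM in controls against 14.1 CPM in Dicer KO cells with vehicle, where a LysMcre/+ cell is known to keep an intact allele. The names of the deposited files mark the LysM locus of the controls as wildtype, against their titles, so the LysM genotypes of the groups are uncertain, and a difference at Lyz2 and the loss of Dicer1 cannot be told apart as the source of any genotype difference. All 10 macrophage markers exceeded 1 CPM in some group, and with Lyz2 left out the other 9 summed to 7183 to 8022 CPM in Dicer KO cells against 7342 to 8031 in controls with vehicle, and to 10153 to 10346 against 9305 to 9464 CPM after LPS. Of the 10, Lyz2 included, 4 were called higher and 5 lower in Dicer KO cells with vehicle (median -0.07), and 5 higher and 3 lower after LPS (median 0.10). Summed dendritic cell markers (4 of 10 over 1 CPM) were 16.8 to 21.5 CPM in control and 61.2 to 65.9 CPM in Dicer KO groups, and T and NK lymphocyte markers (2 of 10 over 1 CPM, Ncr1 at 0) were 7.93 to 10.999 CPM with vehicle, and after LPS 16.1 to 19.9 CPM in control and 37.6 to 40.9 CPM in Dicer KO cells. Mast cell and basophil markers (2 of 10 over 1 CPM, Tpsb2, Cma1 and Fcer1a at 0) went from 1.17 to 4.51 CPM with vehicle up to 61.0 to 67.5 CPM (control) and 160 to 166 CPM (Dicer KO) after LPS, and stromal markers (2 of 10 over 1 CPM, Lum at 0) from 1.00 to 1.91 CPM up to 24.2 to 26.8 and 36.4 to 40.5. B lymphocyte markers (4 of 10 over 1 CPM) were 190 to 191 CPM in control and 133 to 143 CPM in Dicer KO cells with vehicle. After LPS they were 59.6 to 63.5 CPM in control and 70.1 to 71.4 CPM in Dicer KO cells. After LPS, in both genotypes, Hdc was the only mast cell and basophil gene called higher. Lck was the only T and NK gene called higher, while Cd4 was called lower. The stromal genes called higher were Pdgfrb and Fap. Of 5 dendritic cell genes tested, Xcr1, Itgax, Ccr7 and Kit were called higher in Dicer KO cells with vehicle, and Xcr1, Itgax and Ccr7 in LPS. None was called lower in either treatment. Over all genes 25% were called higher and 21.2% lower with vehicle, and 28.8% and 27% in LPS. No cell type is named from these sums, some of which can move with a single gene. The part of other cells in the results was not tested. All 13 protein-coding genes of mitochondrial DNA are listed at 0, so only the nuclear share of each complex was measured.

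Per kilobase of the principal transcript, the most abundant members in control vehicle were Cox4i1, the regulatory subunit of complex IV, at 253 CPM per kb and Atp5b, the catalytic beta subunit of ATP synthase, at 174 CPM per kb. The medians were 29.0 CPM per kb for complex I, 65.5 for complex II, 56.7 for complex III, 77.4 for complex IV and 77.0 for complex V. Cycs, at 6.16 CPM per kb, ranked 75 of the 81 members. After LPS it ranked 45 in control cells, at 44.2 CPM per kb, and 24 in Dicer KO cells, at 78.4 CPM per kb. The next largest span of ranks over the 4 groups was that of Atp5g2, and Cox4i1 and Atp5b held the first places in every group. The tissue-restricted isoforms were scarce, with Cox6a2, the heart and muscle form of Cox6a, at 1.06 CPM per kb and Cox7a1 at 4.13 CPM per kb in control vehicle. Low levels were not particular to them. In the same group Ndufb2, of complex I, ranked 81 of the 81 members at 0.624 CPM per kb, and Ndufab1 stood at 5.26. Of the 81 members, 18 share over 20% of their 50-base stretches with other genes. Reads there may have been shared or lost, so levels and ranks between genes are approximate. Of the 6 genes under the count minimum, Cox8b, Cox8c and Cox7b2 had no counts, Ndufa4l2 had 5 and Cox4i2 had 11 over all libraries, and Cox6b2 had 72.

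The first comparison asked what LPS does to these genes in control macrophages. Cycs, which encodes the electron carrier cytochrome c, rose about 7-fold, and Ndufs4, an accessory subunit at the NADH-oxidising arm of complex I, and Cox5a, a core-associated subunit of complex IV, also rose on both scales. At an adjusted p under 0.05, 28 members were called higher and 17 lower, where 38% of all genes were called higher and 41.1% lower. The median member changed by 0.05 on the log2 scale and the median gene by -0.06. Scaled to library totals, 3 members (Cycs, Ndufs4 and Cox5a) were called higher and 68 lower, and all 17 of the falls kept their call. Without control LPS replicate 2 the falls numbered 11. Only 2 members rose and 1 fell by 2-fold or more among those called (Cycs, Ndufs4 and Atp5s), while 37.9% of all genes were called with a change of that size.

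Cycs (ENSMUSG00000063694, GRCm38 chr6:50562563-50566538, minus strand) stood at 17.7, 17.7 and 22.3 CPM in the control vehicle libraries and at 153, 126 and 135 CPM in control LPS. In the Dicer KO libraries it stood at 36.8, 36.7 and 40.3 CPM with vehicle and at 245, 249.2 and 241 CPM with LPS. None of the 4 groups overlapped, and the order from lowest to highest was control vehicle, Dicer KO vehicle, control LPS and Dicer KO LPS. LPS raised Cycs by 2.84 ± 0.09 (log2, SE) in control cells (adjusted p = 3.73e-15) and by 2.69 ± 0.08 in Dicer KO cells (adjusted p = 3.74e-15), and Dicer KO raised it by 0.98 ± 0.09 in vehicle (adjusted p = 1.55e-07) and 0.83 ± 0.08 in LPS (adjusted p = 7.66e-08). On library totals the same 4 changes were 2.32, 1.94, 0.86 and 0.48, each still called. The LPS responses of the genotypes differed by -0.15 ± 0.12 (adjusted p = 0.341), which became -0.38 and called on library totals, -0.30 and called without the 2 outlying libraries, and -0.27 and called without control vehicle replicate 3 alone. Part of the Cycs transcript (28.5% of its 50-base stretches) is found in 76 other genes so reads there may have been shared or lost.

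Cycs, Cox5a and Ndufs4 were the members whose rise with LPS in control cells held on both scales, and the promoters of Cycs and Cox5a are shown. Both are the 250 bases before the RefSeq start on GRCm38.p6, in the direction of the gene, with the letters of searched motifs in capitals. The Cycs window lies at chr6:50566570-50566819 (minus strand) and the Cox5a window at chr9:57520982-57521231 (plus strand).
Cycs: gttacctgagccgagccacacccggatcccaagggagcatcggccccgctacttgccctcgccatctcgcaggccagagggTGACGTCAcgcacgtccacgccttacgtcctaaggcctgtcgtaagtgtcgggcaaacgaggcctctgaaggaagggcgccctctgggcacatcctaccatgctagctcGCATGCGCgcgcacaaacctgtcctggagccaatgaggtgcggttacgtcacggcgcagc
Cox5a: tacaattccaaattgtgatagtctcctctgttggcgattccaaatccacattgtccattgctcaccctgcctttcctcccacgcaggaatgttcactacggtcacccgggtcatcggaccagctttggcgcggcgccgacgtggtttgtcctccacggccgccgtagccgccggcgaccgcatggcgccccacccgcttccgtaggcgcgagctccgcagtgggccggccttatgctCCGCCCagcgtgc
The Cycs window holds the cAMP response element TGACGTCA, 162 to 169 bases before the start, and the NRF1 core GCGCATGC on the opposite strand (printed as GCATGCGC), 53 to 60 bases before it. NRF1 is a transcription factor long known to bind the promoters of many respiratory chain genes, cytochrome c among them. The Cox5a window holds a GC box, GGGCGG on the opposite strand, 8 to 13 bases before its start. Among the 65 members matched by symbol to a RefSeq promoter of 300 bases, 250 before and 50 after the start, 11 (16.9%) held the NRF1 core on either strand against 3.05% of 27025 genes with such a window. The ETS core CCGGAAG, bound by GABP, was in 24.6% of members and 9.93% of all genes, AAGATGGCG (YY1) in 10.8% and 1.64%, TCAAGGTCA (oestrogen-related receptor) in 3.08% and 0.466%, the cAMP response element in 7.69% and 2.03%, and the GC box in 40% and 38.2%. None of these motifs contains another. The window of Ndufs4, which is not printed, held the YY1 letters on 1 strand or the other and none of the other motifs. Of the 11 members with the NRF1 core, 5 were called higher (Atp5k, Cox6a1, Cycs, Ndufa11 and Uqcrc1) and 4 lower (Atp5g2, Ndufa6, Ndufa8 and Uqcr11) after LPS in control cells, beside 38% and 41.1% of all genes. On library totals the rise of Cycs alone held. Of the 5 with the cAMP response element, Cycs, Ndufa11 and Uqcrfs1 were called higher in that comparison, and again Cycs alone was higher on library totals.

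**Figure D1:**
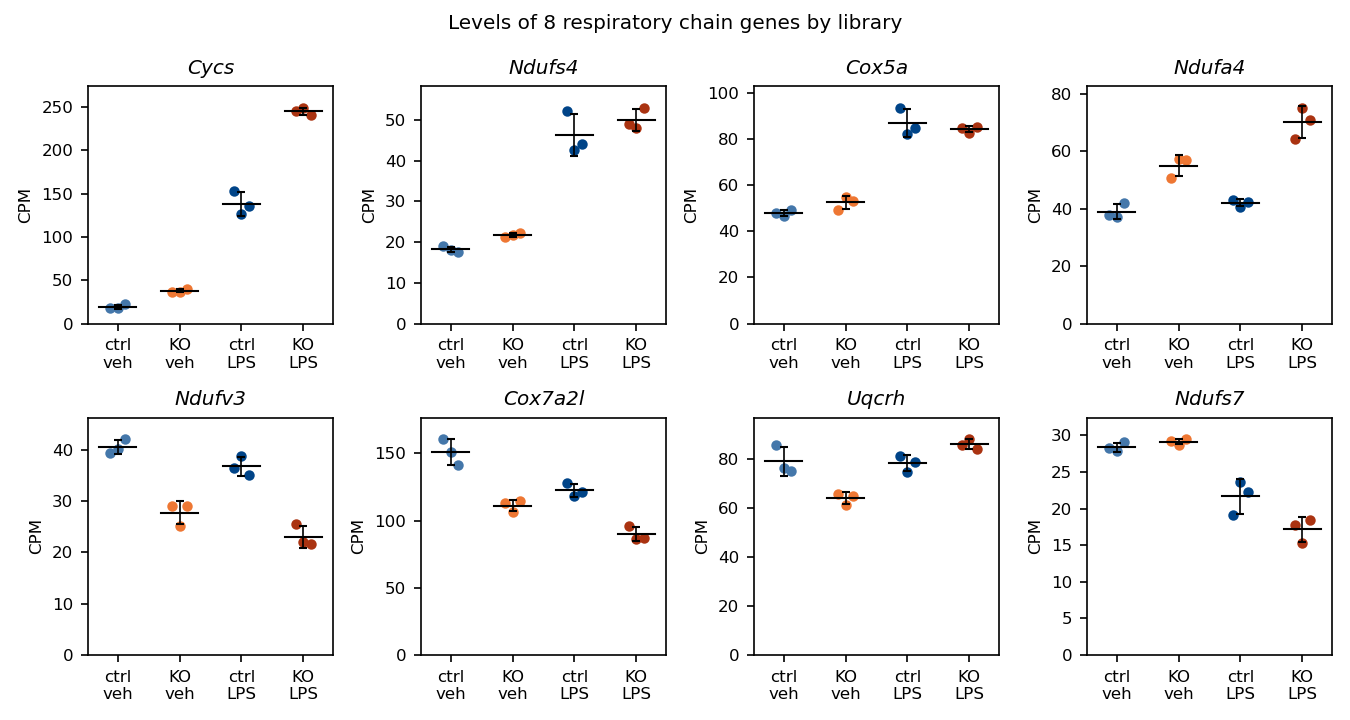
Level in CPM (linear axis from 0) of 8 members in each library, as points, with the group mean (line) and SD (bar, n = 3), for control (ctrl) and Dicer KO (KO) cells with vehicle (veh) or LPS. Cycs separates all 4 groups, from 17.7 CPM in control vehicle to 249.2 CPM in Dicer KO LPS, Ndufa4 is higher and Ndufv3 and Cox7a2l are lower in both Dicer KO groups, and Uqcrh is lower in Dicer KO cells with vehicle.

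Within complex I, the 36 members split after LPS in control cells, with 6 called higher and 10 lower, and a median of -0.01. Over all genes 38% were called higher and 41.1% lower. Ndufs4 rose most, from 18.9, 18.1 and 17.5 CPM to 52.2, 42.6 and 44.1 CPM. The groups did not overlap, with a change of 1.35 ± 0.08 (adjusted p = 5.03e-12) that was 0.82 on library totals. The core subunits, which carry the flavin and iron-sulfur centres, moved in both directions. Ndufs3, in the peripheral arm, rose by 0.42 on the TMM scale, with -0.10, not called, on library totals. Ndufs8, which holds a pair of iron-sulfur clusters, went from 18.1, 18.7 and 21.9 CPM to 16.3, 12.7 and 13.9 CPM, and Ndufs7, which holds the last iron-sulfur cluster before coenzyme Q, from 28.2, 27.8 and 29.1 CPM to 19.1, 23.7 and 22.3 CPM. Neither pair of groups overlapped, and the changes were -0.46 ± 0.12 for Ndufs8 (adjusted p = 0.00158) and -0.39 ± 0.08 for Ndufs7 (adjusted p = 0.00019). Of the 12 accessory subunits named Ndufb or Ndufc, most of them in the membrane arm, 4 were called lower, among them Ndufb5 (-0.47), Ndufb11 (-0.41) and Ndufb10 (-0.40), and 1 was called higher. Neither is a larger share than that over all genes. Ndufa6, a small accessory subunit of the peripheral arm, fell from 47.0, 41.9 and 39.0 CPM to 27.9, 30.7 and 32.4 CPM, a change of -0.49 ± 0.08 (adjusted p = 3.96e-05) with no overlap.

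Complex II, which is also succinate dehydrogenase of the citric acid cycle, changed little after LPS in control cells on the TMM scale. Its flavoprotein Sdha stood at 174, 163 and 170 CPM with vehicle and 161, 148 and 156 CPM with LPS. The groups did not overlap, and the change of -0.12 ± 0.05 was called (adjusted p = 0.0331), but the call was lost when replicate 1 of control vehicle (-0.10), replicate 2 (-0.07) or 3 (-0.12) of control LPS, or replicate 3 of Dicer KO vehicle (-0.12) was omitted. It was also lost with RLE size factors (-0.09), with DESeq2 (-0.09) and with only these groups in the fit (-0.12). The iron-sulfur subunit Sdhb (-0.12, adjusted p = 0.0717) and the membrane anchors Sdhc (-0.11, adjusted p = 0.126) and Sdhd (0.04, adjusted p = 0.526) were not called on the TMM scale. In Dicer KO cells Sdha was again the called member on the TMM scale, at -0.30 ± 0.05 (adjusted p = 2.39e-05). There Sdhd was called higher with RLE size factors (0.15) and with DESeq2 (0.15).

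In complex III, 6 of 9 members were called higher in control cells and Uqcr11, a small subunit, was called lower, beside 38% and 41.1% of all genes. Uqcrfs1, the Rieske iron-sulfur protein, rose on the TMM scale by 0.47 ± 0.06 (adjusted p = 3.87e-07), with -0.06, not called, on library totals. Cyc1, cytochrome c1, rose on the TMM scale by 0.24 ± 0.07 (adjusted p = 0.00561), with -0.29, called, on library totals. Uqcrfs1 stood at 55.4, 52.2 and 50.9 CPM with vehicle and 77.8, 71.7 and 69.5 CPM with LPS, without overlap. Uqcrq, a small subunit beside cytochrome b, went from 16.1, 15.0 and 17.2 CPM to 20.4, 26.6 and 25.2 CPM, without overlap, a rise of 0.58 ± 0.10 (adjusted p = 2.16e-05) on the TMM scale and 0.06, not called, on library totals.

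In complex IV, 8 of 14 members were called higher in control cells on the TMM scale and 1, Cox7a2l, lower, beside 38% and 41.1% of all genes. The median of the complex was 0.21. Cox5a rose from 48.0, 46.8 and 49.5 CPM to 93.8, 82.5 and 85.0 CPM. These groups did not overlap, and the change of 0.86 ± 0.06 (adjusted p = 8.15e-11) remained 0.33 and called on library totals. In Dicer KO cells Cox5a went from 49.5, 55.1 and 53.2 CPM to 85.1, 83.0 and 85.4 CPM, 0.68 ± 0.06 (adjusted p = 2.54e-09) on the TMM scale and -0.06, not called, on library totals. Copies of Cox5a in 3 other genes share 32.0% of its 50-base stretches, and 12.8% of its exonic bases lie opposite Gm26631. Cox7a2l (SCAF1) is named for joining complexes III and IV into supercomplexes, which was not measured in these mice. It went from 161, 151 and 141 CPM to 128, 119 and 121 CPM, a fall of 0.30 on the log2 scale with SE 0.06 (adjusted p = 0.00012) and no overlap. Its paralogs of the Cox7a family did otherwise, with Cox7a2, the form found in most tissues, at 0.49 ± 0.06 (adjusted p = 8.09e-07) on the TMM scale and -0.04, not called, on library totals, and Cox7a1, the muscle form, not called (0.21, adjusted p = 0.337).

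In complex V, 7 of 17 members were called higher and 4 lower in control cells, beside 38% and 41.1% of all genes. The rises, which were on the TMM scale, took in Atp5b (0.51), the alpha subunit Atp5a1 (0.43), 3 of the 4 peripheral stalk members, which hold the catalytic head still, and Atp5g3, 1 of 3 genes for the proton-carrying c subunit. Of these, Atp5f1, peripheral stalk subunit b, rose most, from 124, 125 and 126 CPM to 187, 180 and 180.1 CPM, without overlap. Its change of 0.54 ± 0.05 (adjusted p = 1.01e-08) rests on a transcript of which 38.7% of 50-base stretches occur in 4 other genes. Atp5g2, another c subunit gene, went the other way on both scales, from 59.1, 55.6 and 54.3 CPM to 43.6, 44.0 and 41.6 CPM, a change of -0.39 ± 0.05 (adjusted p = 2.38e-06) with no overlap. Copies in 2 other genes share 87.4% of its 50-base stretches. Atp5s, coupling factor B, had the largest fall of any member, -1.45 ± 0.19 (adjusted p = 1.59e-06), at 4.78, 3.63 and 4.10 CPM with vehicle and 1.18, 1.63 and 1.74 CPM with LPS.

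In Dicer KO cells LPS was followed by 35 members called higher and 19 lower, where 37.4% of all genes were called higher and 42.7% lower. The median member changed by 0.11 and the median gene by -0.10, and on library totals 2 members (Cycs and Ndufs4) were called higher and 75 lower. In both genotypes 24 members were called higher and 14 lower, and no member was called in opposite directions. The 24 are 85.7% of the 28 members called higher in control cells and 68.6% of the 35 in Dicer KO cells, and the 14 are 82.4% of 17 and 73.7% of 19. Over all genes tested the matching shares were 85.5% and 86.9% for rises and 85.9% and 82.7% for falls. Across the 81 members the log2 responses of the genotypes, which share no library, correlated with Pearson r = 0.93 and Spearman rho = 0.89, and with r = 0.91 without Cycs. These are genes of the same libraries and not independent replicates. All 11 members in the main complex IV group (without Cox7a2l and the tissue isoforms Cox6a2 and Cox7a1) were called higher, by 0.23 (Cox4i1) to 0.71 (Cox7a2), and all but Cycs and Ndufs4 among the rising members were lower or not called on library totals. In complex I, 9 were called higher and 13 lower. Ndufs8 fell by 0.81 (log2, SE 0.12, adjusted p = 5.25e-06), from 22.9, 29.8 and 24.8 CPM to 14.1, 13.7 and 16.3 CPM, and Ndufs7 by 0.76 (SE 0.08, adjusted p = 9.9e-08), from 29.2, 28.7 and 29.5 CPM to 17.8, 15.2 and 18.4 CPM. In neither gene did the groups overlap. Ndufs4 rose from 21.3, 21.8 and 22.3 CPM to 49.1, 48.0 and 53.0 CPM, a change of 1.20 ± 0.08 (adjusted p = 2.85e-11) that was 0.45 and called on library totals.

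**Figure D2:**
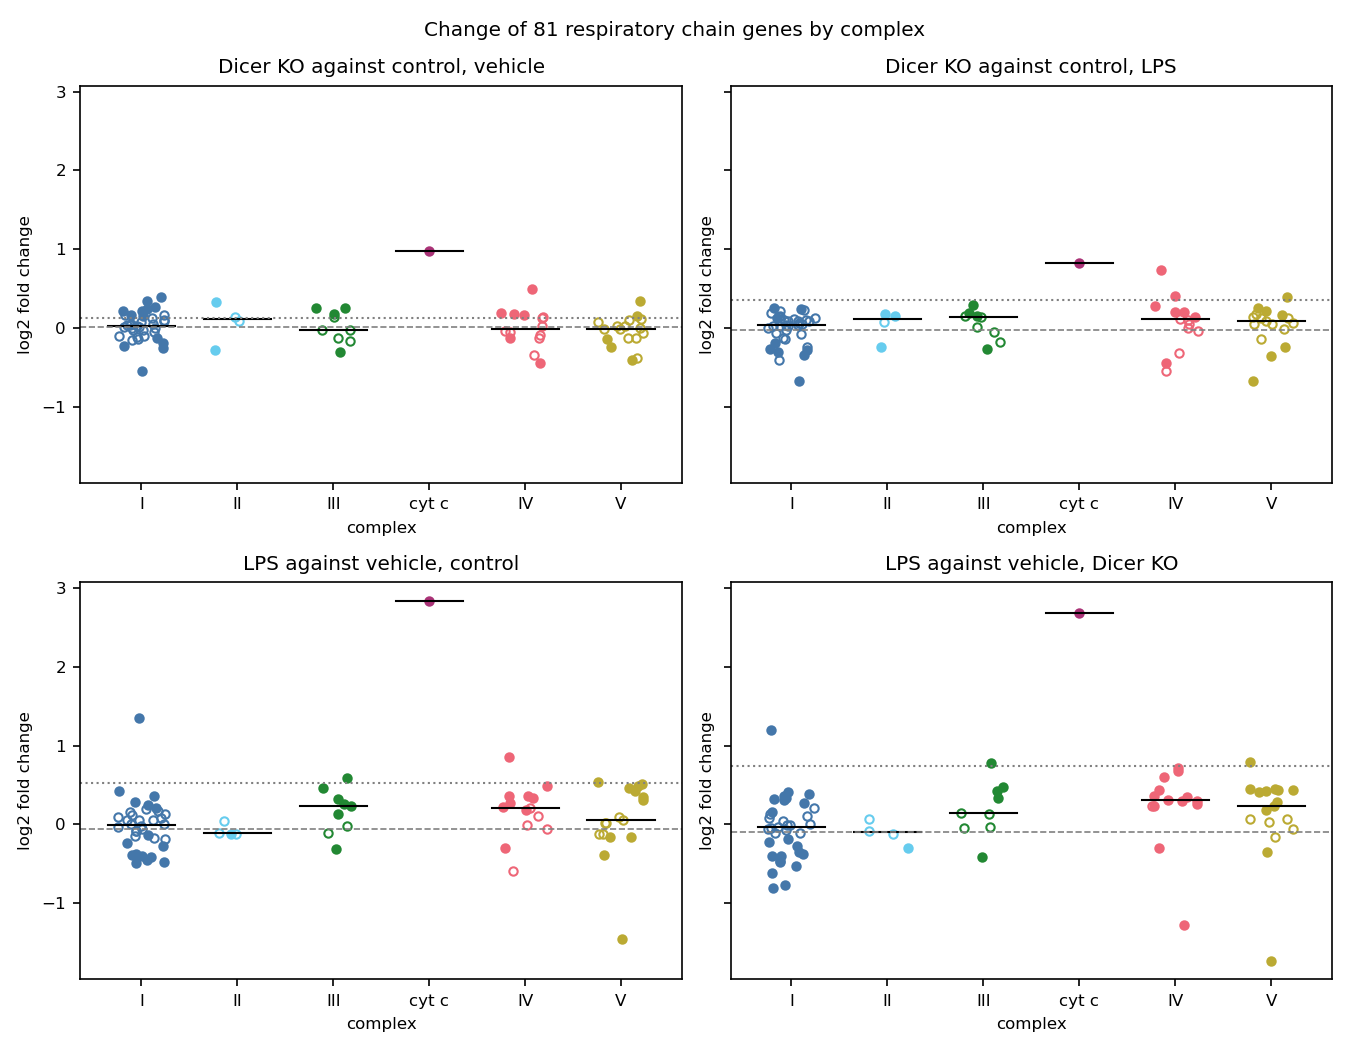
Log2 fold change of each of the 81 members by complex in the 4 pairwise comparisons, filled where called at an adjusted p under 0.05, with the median of each complex (bar) and the median of all genes on the TMM scale (dashed). The dotted line marks where no change lies on library totals, at 0.13, 0.35, 0.52 and 0.75, and most members called higher after LPS lie between the lines, so their direction turns on that scale, while Cycs and Ndufs4 lie above it in both genotypes.

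The sums over members gave another view of the same libraries. Complex V summed to 1538 ± 61.2 CPM (SD, n = 3) in control vehicle and 1900.0 ± 69.2 in control LPS, and complex IV to 861 ± 18.5 and 962 ± 36.0 CPM, with no overlap on the TMM scale, whereas as a share of all gene counts they fell, complex V from 0.200% to 0.172% and complex IV from 0.112% to 0.0872%. Complex I summed to 1085 ± 31.3 CPM in control vehicle, 1084 ± 31.1 in Dicer KO vehicle, 1107 ± 26.8 in control LPS and 1105 ± 11.6 in Dicer KO LPS, all within the spread of the libraries, while its share of gene counts fell from 0.141% to 0.129%, 0.1003% and 0.0784%. All 81 members together made up 0.572% of gene counts in control vehicle, 0.539% in Dicer KO vehicle, 0.457% in control LPS and 0.388% in Dicer KO LPS.

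**Figure D3:**
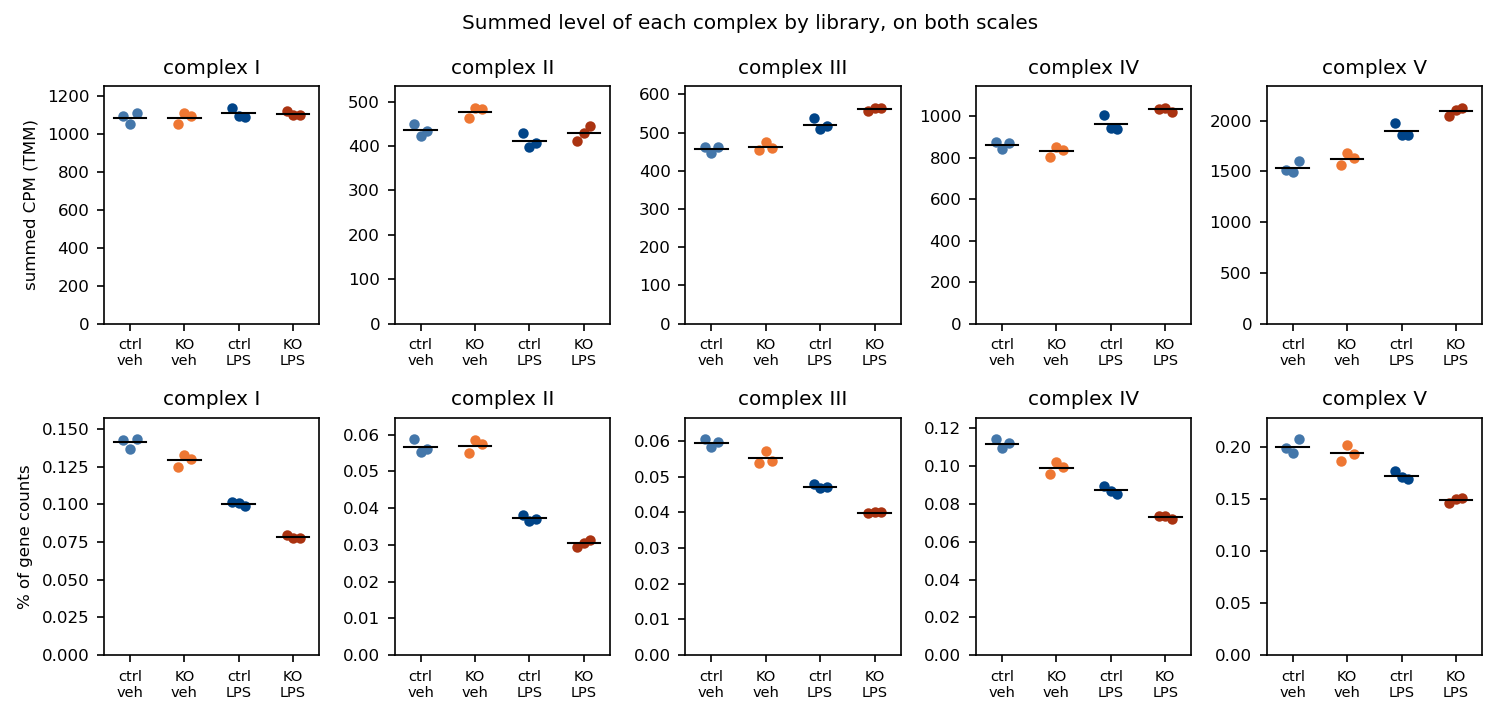
Summed level of complexes I to V in each library (points) with the group mean (line), as TMM-scaled CPM in the upper row and as a percent of all gene counts in the lower row, on linear axes from 0. After LPS the sums of complexes III, IV and V are higher in the upper row and lower in the lower row, and complex I is level above and lower below, from 0.141% in control vehicle to 0.0784% in Dicer KO LPS.

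The second question was whether loss of Dicer1 changes these genes. In vehicle, 19 members were called higher and 12 lower in Dicer KO cells, where 25% of all genes were called higher and 21.2% lower. The median member changed by 0.02 and the median gene by 0.01, and no called member changed by 2-fold or more. On library totals, 5 members (Cycs, Ndufa4, Ndufs8, Atp5b and Sdha) were called higher and 31 lower, and the 12 falls kept their call. The 19 became 9 without control vehicle replicate 2, 11 without replicate 1 of that group, and 12 without Dicer KO vehicle replicate 2 or replicate 3. In LPS, 19 members were again called higher and 12 lower, where 28.8% of all genes were called higher and 27% lower, with a median member at 0.07 and a median gene at -0.03. On library totals 2 members (Cycs and Ndufa4) were called higher and 65 lower there, and with size factors by relative log expression (RLE) 33 were called higher. The 19 became 10 without control LPS replicate 2 and 11 without replicate 3. In both treatments 8 members were called higher and 7 lower, which is 42.1% of the 19 and 58.3% of the 12 in each treatment. Over all genes, 64.2% of the rises in vehicle and 55.8% of those in LPS were shared, and 55.5% and 43.5% of the falls.

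Ndufa4, a subunit first assigned to complex I and now placed in complex IV, rose with loss of Dicer1 in both treatments and on both scales. It stood at 37.8, 36.9 and 41.8 CPM in control vehicle against 50.6, 57.2 and 57.0 CPM in Dicer KO vehicle, and at 42.8, 40.6 and 42.4 CPM in control LPS against 64.3, 75.1 and 70.7 CPM in Dicer KO LPS. The genotypes did not overlap in either treatment. The changes were 0.50 ± 0.07 in vehicle (adjusted p = 9.35e-06) and 0.74 ± 0.07 in LPS (adjusted p = 5.54e-08), and 0.37 and 0.39 on library totals, and no 50-base stretch of Ndufa4 occurs in another gene. LPS itself gave 0.11 in control cells (adjusted p = 0.149) and 0.35 in Dicer KO cells (adjusted p = 0.000109) on the TMM scale, and both were falls on library totals. AA467197, the mouse gene of NMES1 and not a member by its symbol, encodes a protein that takes the place of NDUFA4 in complex IV of inflamed cells, and its transcript carries microRNA miR-147. With vehicle it stood at 0.486, 0.652 and 0.710 CPM in control cells and 1.30, 0.721 and 1.17 CPM in Dicer KO cells, against 149.6, 138 and 132 CPM and 311, 269 and 268 CPM after LPS. No groups overlapped, though the vehicle groups nearly met. LPS raised it by 7.81 ± 0.13 in control cells (adjusted p = 1.77e-19) and Dicer KO by 1.01 ± 0.07 in LPS (adjusted p = 9.83e-10), also on library totals.

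Other members rose with loss of Dicer1 by less. Sdha stood at 213, 215 and 209.9 CPM in Dicer KO vehicle against 174, 163 and 170 CPM in control vehicle. The groups did not overlap, and the change was 0.33 ± 0.05 (adjusted p = 3.58e-05), but in LPS it was 0.15 ± 0.05 (adjusted p = 0.0187) on the TMM scale and -0.20 on library totals. The Sdha call in LPS was lost without control LPS replicate 2 (0.11) or Dicer KO LPS replicate 3 (0.11). Sdhd, an anchor of the same complex, went down in both treatments, from 98.4, 87.0 and 83.2 CPM to 71.9, 73.0 and 76.7 CPM in vehicle (-0.28 ± 0.06, adjusted p = 0.000655) and from 94.7, 90.1 and 91.5 CPM to 76.9, 78.6 and 77.9 CPM in LPS (-0.24 ± 0.06, adjusted p = 0.00182). The genotypes did not overlap in either. Atp5b rose by 0.35 ± 0.07 in vehicle (adjusted p = 0.00045), while its 0.25 in LPS became -0.10 on library totals.

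The largest falls with loss of Dicer1 that held in both treatments and on both scales were in Ndufv3, Cox7a2l and Atp5g2. Ndufv3, an accessory subunit beside the NADH site of complex I, stood at 39.3, 40.2 and 42.0 CPM in control vehicle and 29.0, 25.2 and 28.9 CPM in Dicer KO vehicle, and at 36.4, 38.7 and 35.04 CPM in control LPS and 25.5, 21.9 and 21.7 CPM in Dicer KO LPS. Its genotypes did not overlap, with changes of -0.55 ± 0.07 (adjusted p = 5.77e-06) and -0.67 ± 0.08 (adjusted p = 7.38e-07). Cox7a2l stood at 113, 106 and 114 CPM in Dicer KO vehicle and 96.3, 86.4 and 87.3 CPM in Dicer KO LPS, each below every control library of the same treatment. The changes were -0.44 ± 0.06 (adjusted p = 7.04e-06) and -0.45 ± 0.06 (adjusted p = 4.93e-06), and since LPS lowered it by 0.30 in each genotype, Dicer KO LPS was the lowest group. Atp5g2 followed that order too, at 41.2, 43.6 and 43.0 CPM in Dicer KO vehicle and 34.3, 32.7 and 33.5 CPM in Dicer KO LPS, with changes of -0.40 ± 0.05 (adjusted p = 6.25e-06) and -0.36 ± 0.06 (adjusted p = 3.4e-05). Ndufa6 (-0.26 and -0.30), Ndufb10 (-0.20 and -0.28) and the ATP synthase delta subunit Atp5d (-0.24 and -0.24) were also called lower in both treatments, although the Ndufa6 genotypes overlapped in LPS. The call in vehicle was lost without control replicate 1 (-0.18) or Dicer KO replicate 1 (-0.21) for Ndufa6 and without control replicate 3 (-0.15) or Dicer KO replicate 1 (-0.18) or 3 (-0.16) for Ndufb10, and that of Ndufa6 in LPS without control replicate 3 (-0.25) or Dicer KO replicate 2 (-0.24) or 3 (-0.26).

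The third question was whether the LPS response differs between genotypes. Among the members 9 had a higher response in Dicer KO cells and 2 a lower one, where 14.9% of all genes were called higher and 18.8% lower. The median member differed by 0.01 and the median gene by -0.04. On library totals 1 member, Uqcrh, was called higher and 34 lower. The 9 were 3 members of complex III, 4 of complex IV (Cox4i1, Cox6b1, Cox6c and Cox7b) and Atp5f1 and Atp5mpl of complex V. Uqcrh, the hinge protein between cytochrome c1 and cytochrome c, stood at 85.9, 76.3 and 75.2 CPM in control vehicle and 65.8, 61.3 and 65.0 CPM in Dicer KO vehicle, without overlap, and at 81.5, 74.8 and 79.0 CPM in control LPS and 85.7, 88.2 and 84.4 CPM in Dicer KO LPS. It was lower in Dicer KO cells at rest (-0.31 ± 0.06, adjusted p = 0.000268), and after LPS the difference was 0.14 ± 0.06 (adjusted p = 0.0569), which was -0.22 on library totals. The responses differed by 0.44 ± 0.08 (adjusted p = 0.000408), and by 0.22, still called, on library totals. Uqcrfs1 responded more in Dicer KO cells by 0.31 ± 0.08 (adjusted p = 0.0054) on the TMM scale, from 52.4, 53.3 and 50.5 CPM to 93.3, 87.6 and 86.4 CPM, a call that did not hold on library totals. Uqcrq went the other way, at 17.8, 21.7 and 18.2 CPM in Dicer KO vehicle and 20.4, 21.6 and 21.8 CPM in Dicer KO LPS, groups that overlapped, and its response was lower than in control cells by -0.44 ± 0.14 (adjusted p = 0.0211). Ndufs7 also had a lower response in Dicer KO cells, by -0.38 ± 0.11 (adjusted p = 0.0163), and both calls held on library totals. The Uqcrq call was lost when replicate 2 of control vehicle (-0.39), of control LPS (-0.37) or of Dicer KO vehicle (-0.35), or replicate 3 of control LPS (-0.41), was omitted, and the Ndufs7 call without control LPS replicate 2 (-0.32) or Dicer KO LPS replicate 2 (-0.30). With 1 library left out, the members with a higher response numbered 5 without control LPS replicate 3 and 14 without control LPS replicate 1, and 6 had a lower response without control vehicle replicate 3.

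**Figure D4:**
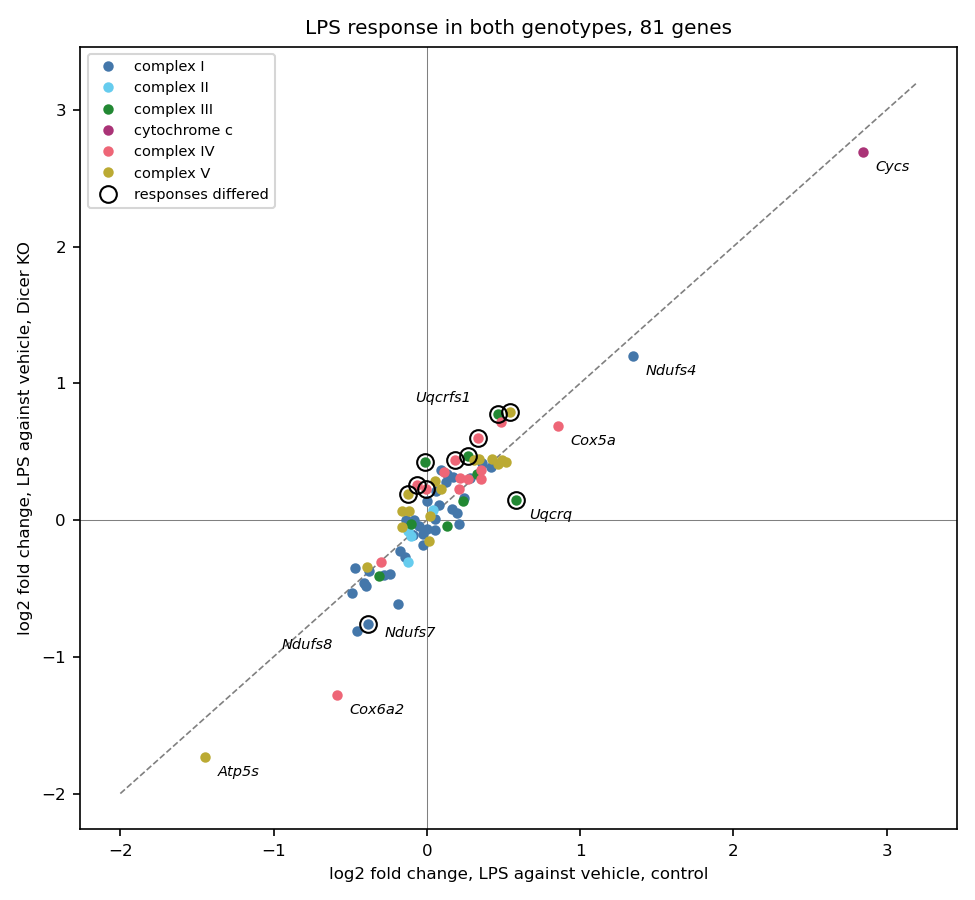
Log2 fold change of each of the 81 members after LPS in control cells (horizontal axis) and in Dicer KO cells (vertical axis) on the TMM scale, coloured by complex, with the line of equal responses (dashed) and rings on the 11 members whose responses differed. Cycs (2.84 and 2.69) and Ndufs4 (1.35 and 1.20) are high and Atp5s (-1.45 and -1.73) is low in both, and all other members but Cox6a2 (-1.28 in Dicer KO cells) lie within 1 unit of no change on both axes.

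The proteins that build the complexes were followed through 64 listed genes, of which 61 were tested. These are assembly factors, with the ATP synthase inhibitor Atpif1 counted among them. After LPS, 15 were called higher and 27 lower in control cells (median -0.18), and 10 higher and 33 lower in Dicer KO cells (median -0.40), next to 28 and 17, and 35 and 19, of the 81 subunits. These stand beside 38% of all genes called higher and 41.1% lower in control cells (median -0.06), and 37.4% and 42.7% in Dicer KO cells (median -0.10). Loss of Dicer1 in LPS was followed by 5 called higher and 22 lower (median -0.21), beside 28.8% and 27% of all genes (median -0.03). Among the 18 complex I assembly factors tested, none was called higher and 8 were called lower in Dicer KO cells in LPS, with a median of -0.30. In vehicle 4 were called higher and none lower, beside 25% and 21.2% of all genes. Ecsit, which is needed for complex I assembly and also acts in TLR signalling, stood at 5.37, 6.60 and 4.40 CPM in control LPS and 2.48, 2.55 and 1.66 CPM in Dicer KO LPS, without overlap, a change of -1.29 ± 0.20 (adjusted p = 2.67e-05), and 24.0% of its exonic bases lie opposite Gm16845. Ndufaf7, a methyltransferase needed for complex I assembly, fell after LPS by 2.34 (log2, SE 0.18, adjusted p = 6.74e-10) in control cells, from a mean of 8.99 to 1.77 CPM, and by 2.88 in Dicer KO cells.

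The complex IV assembly factors divided. In control cells after LPS 9 of 26 were called higher and 8 lower, beside 38% and 41.1% of all genes. Sco1, which delivers copper to complex IV, stood at 6.31, 6.80 and 6.56 CPM in control and 9.21, 9.84 and 8.82 CPM in Dicer KO cells with vehicle, and at 62.1, 49.1 and 54.8 CPM and 154, 134 and 138 CPM after LPS. No groups overlapped. LPS raised Sco1 by 3.07 ± 0.09 in control cells (adjusted p = 5.23e-16) and by 3.94 ± 0.09 in Dicer KO cells (adjusted p = 6.24e-18), and the responses differed by 0.86 ± 0.13 (adjusted p = 6.79e-05), also on library totals. Coa5, another assembly factor of the complex, averaged 113, 184, 399.98 and 628 CPM in control vehicle, Dicer KO vehicle, control LPS and Dicer KO LPS, and rose with LPS by 1.82 ± 0.06 in control cells (adjusted p = 7.07e-16). Higd1a, a small protein that binds complex IV and is known to respond to hypoxia, averaged 21.3 CPM in Dicer KO LPS against 43.1 in control LPS (-1.02 ± 0.08, adjusted p = 2.29e-09), with 22.5% of its exonic bases opposite Gm47112. Atpif1, which blocks the reverse reaction of ATP synthase, fell after LPS in control cells from a mean of 87.6 to 58.8 CPM (-0.58 ± 0.05, adjusted p = 8.78e-09), with 33.7% of its exonic bases opposite Gm12999.

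Coenzyme Q connects these complexes. Of 13 listed genes for its synthesis or function, 2 were called higher and 6 lower after LPS in control cells (median -0.19), and 3 higher and 8 lower in Dicer KO cells (median -0.44). Over all genes, 38% were called higher and 41.1% lower in control cells, and 37.4% and 42.7% in Dicer KO cells. Coq8a, a kinase-like protein of the synthesis complex, fell by 2.32 (SE 0.15, adjusted p = 3.66e-11) in control cells, from a mean of 9.42 to 1.88 CPM, and Coq10a, a lipid-binding protein needed for coenzyme Q function, by 2.02 (SE 0.09, adjusted p = 1.38e-13), from 25.8 to 6.36 CPM, while its paralog Coq10b rose by 1.50 ± 0.09 (adjusted p = 1.37e-11). Of 8 other enzymes that pass electrons to coenzyme Q, 4 were called higher and 3 lower in control cells, beside 38% and 41.1% of all genes. Gpd2, the mitochondrial glycerol-3-phosphate dehydrogenase, rose by 4.09 ± 0.07 (adjusted p = 1.08e-19) in control cells, from a mean of 19.4 to 329.5 CPM, and by 3.84 ± 0.07 (adjusted p = 1.72e-19) in Dicer KO cells, to 317 CPM. For comparison, complex II, the enzyme that feeds coenzyme Q from succinate, had no member called higher after LPS in either genotype on the TMM scale. In Dicer KO cells its anchor Sdhd was called higher with RLE size factors (0.15) and with DESeq2 (0.15), but was -0.67 on library totals.

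**Figure D5:**
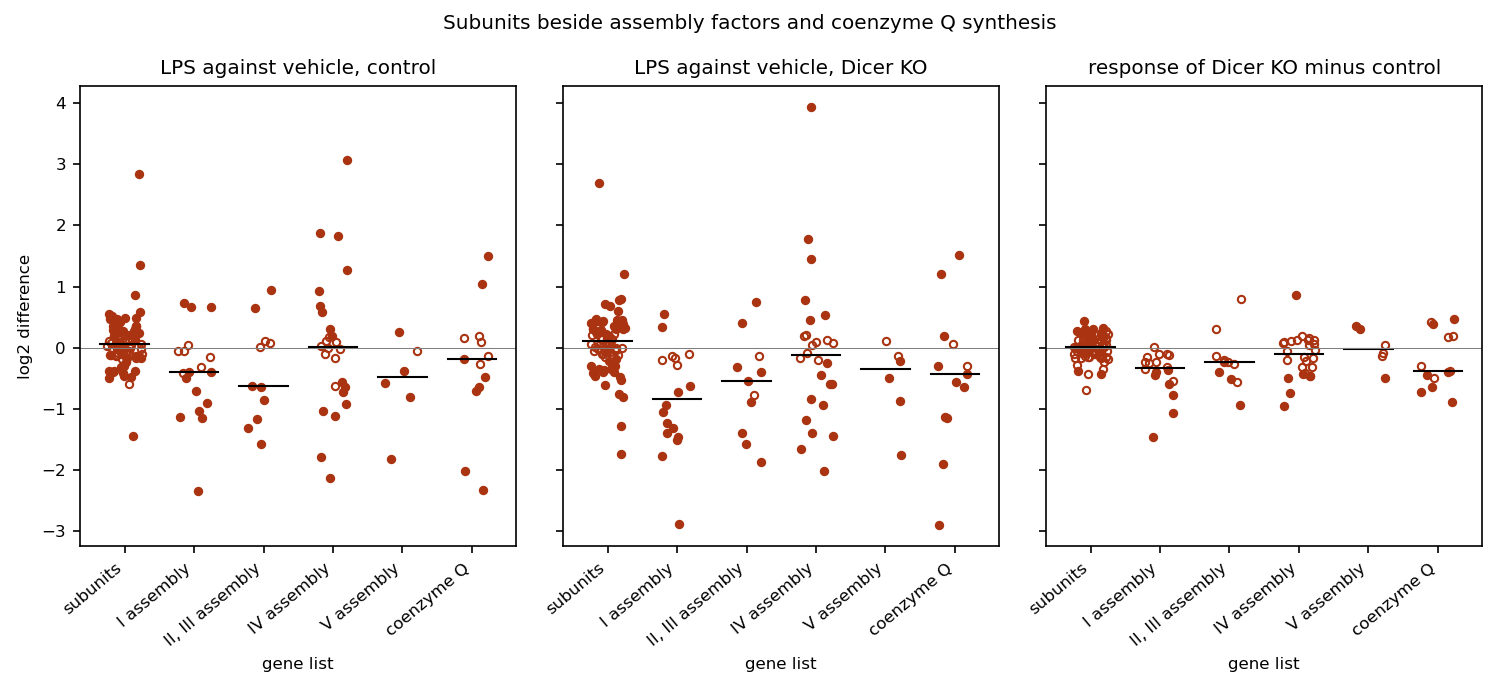
Log2 fold change after LPS in control cells, in Dicer KO cells, and the difference between these responses, on the TMM scale. Shown are the 81 subunits, the listed assembly factors of complexes I to V (with the inhibitor Atpif1 under complex V) and the listed coenzyme Q genes. Points are filled where called at an adjusted p under 0.05, with the median of each list (bar). Cycs reaches 2.84 among the subunits in control cells, and the medians of the complex I assembly factors are -0.39, -0.83 and -0.33 in the 3 panels.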

How the data were processed

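Poly(A) RNA of 12 cultures was sequenced from a stranded mRNA kit (500 ng RNA), per the labels' protocols. The deposited values are whole-number counts of reads per gene, 1 table per library, made by the authors. STAR 2.5, DESeq2, mm10 and GRCm38.p5 are named in the submitters' processing notes. How reads were assigned to genes (program, strand, annotation release) is not given in the sources read, so reads from genes and their antisense partners cannot be told apart with certainty. Rows that name no gene, the largest being reads on no feature (45.8% to 46.8% of each library's total), were left out of library sizes and tests.

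Gene identifiers were given symbols and GRCm38 positions from GENCODE M21 (45229 of 46078 matched, the rest holding 0.141% of counts). Counts were filtered with filterByExpr, scaled by TMM and fitted with edgeR 4.0.16 (R 4.3.3, robust quasi-likelihood, 4 group means over all 12 libraries, biological coefficient of variation 6.30%). All tests were two-sided, with Benjamini-Hochberg adjustment over 13837 genes and a threshold of 0.05, and all adjusted p-values in the text come from this fit. Fold changes are log2 with SE. Promoter windows are from RefSeq (GRCm38.p6). The scripts were tested on simulated data.

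Members and gene lists were chosen with earlier results of these data known. Genes described singly were, per comparison, the 4 largest called rises and falls whose groups did not overlap (mean of 5 CPM or more), the smallest adjusted p of each complex, a set list that includes complex II, Cycs, Ndufa4 and the isoforms, and the 2 largest rises and falls among listed assembly, coenzyme Q and related genes. Other members listed beside their complex, role or motif (such as Ndufs3, Atp5s, Atp5d and Atp5g3) were chosen after their values were seen. Alternatives were RLE size factors, library totals, other filters, DESeq2 1.42.0, fewer groups, a replicate block and libraries left out.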

Additional observations from a re-analysis of the deposited data

Results flagged for a closer look

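The LPS response of 21 described genes differed between Dicer KO and control cells by a test of the difference itself, the interaction term of edgeR's quasi-likelihood fit (adjusted p under 0.05). Values are the log2 response in Dicer KO cells minus that in control cells on the TMM scale. Among subunits the response was higher in Dicer KO cells for Uqcrh (0.44), Cox7b (0.32), Atp5mpl (0.31), Uqcrfs1 (0.31), Cox6c (0.27), Cox6b1 (0.25), Atp5f1 (0.25), Cox4i1 (0.24) and Uqcrc2 (0.20), and lower for Uqcrq (-0.44) and Ndufs7 (-0.38). Of the higher responses, only that of Uqcrh was still called on library totals, and that of Atp5mpl was lost in 8 of the 12 fits that left out 1 library. The Cox4i1 call was lost without control LPS replicate 3 (0.18) or Dicer KO LPS replicate 2 (0.21). The Cox7b call was lost without control LPS replicate 2 (0.27), and that of Cox6c without Dicer KO vehicle replicate 3 (0.23). Cox6b1 and Uqcrc2 were not followed singly in those fits.

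Among assembly factors and related genes the response was higher for Sco1 (0.86), Pdss1 (0.47), which makes the side chain of coenzyme Q, and Atpif1 (0.36). The Pdss1 call was lost in 8 of the 12 fits that left out 1 library, and without the 2 outlying libraries (0.40), and that of Atpif1 on library totals. It was lower for Ecsit (-1.45), the complex I assembly factor Ndufaf4 (-1.06), Coq10a (-0.88), Higd1a (-0.75) and Gpd2 (-0.24), the last of which was lost under most settings tried. The targeted gene Dicer1 (-0.52) and Lyz2 (0.91), the gene that holds Cre, also differed.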

How the results depend on the processing

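Library totals moved the results most. On that scale the share of higher calls among all called genes went from 54.1% to 32.8% for Dicer KO in vehicle, from 51.6% to 19.8% for Dicer KO in LPS, from 48.0% to 26.0% for LPS in control cells, from 46.7% to 21.5% for LPS in Dicer KO cells and from 44.3% to 16.3% for the difference of responses. Members called higher and lower were then 5 and 31, 2 and 65, 3 and 68, 2 and 75, and 1 and 34 in the same order. Of the members called higher on the TMM scale, 4 of 19 kept their direction on library totals for Dicer KO in LPS. For LPS, 5 of 28 did so in control cells and 4 of 35 in Dicer KO cells. Those reversed and called numbered 8, 16 and 29. The reversals listed next cover only the genes described singly. A positive log2 change turned negative there for Dicer KO in LPS, Ndufs8 (-0.31), Atp5b (-0.10), Uqcrh (-0.22), Sdha (-0.20), Coq10b (-0.086), Uqcrfs1 (-0.065), Ndufs4 (-0.24), Cox7b (-0.067), Cox6c (-0.22), Sdhb (-0.18), Sdhc (-0.28), Cyc1 (-0.20), Cox4i1 (-0.25), Cox6a1 (-0.24) and Atpif1 (-0.017). The same happened for LPS in control cells, Ndufa4 (-0.41), Atp5b (-0.0076), Cox7a2 (-0.037), Sdhd (-0.48), Uqcrfs1 (-0.058), Cox6c (-0.19), Cyc1 (-0.29), Cox6a1 (-0.17) and Dicer1 (-0.34). It also happened for LPS in Dicer KO cells, Ndufa4 (-0.40), Atp5b (-0.33), Uqcrh (-0.32), Cox7a2 (-0.034), Sdhd (-0.67), Higd1a (-0.22), Cox5a (-0.064), Uqcrq (-0.60), Cox7b (-0.49), Atp5mpl (-0.56), Cox6c (-0.15), Cyc1 (-0.61), Cox4i1 (-0.52), Cox6a1 (-0.44), Cox7a1 (-0.52) and Lyz2 (-0.33). Under every other setting no gene result that was called in the main fit or in that one changed sign. Of 4850 results under those settings, medians over members included, 4625 were counted as kept, 151 lost and 74 gained a call. Medians, and results called in neither fit, could change sign and still count as kept. The median member for the difference of responses did so without control vehicle replicate 1, at -0.0083 against 0.0090. RLE size factors gave 33 members higher for Dicer KO in LPS and 16 with a higher response, DESeq2 29 and 14, and DESeq2 11 lower for LPS in control cells. With no filter on low counts 12 were higher for Dicer KO in vehicle, and without the 2 outlying libraries 5 had a lower response. Leaving out 1 library at a time gave, for Dicer KO in vehicle, 9 to 22 higher and 8 to 13 lower, for Dicer KO in LPS 10 to 24 and 8 to 13, for LPS in control cells 25 to 32 and 11 to 18, for LPS in Dicer KO cells 33 to 37 and 16 to 19, and for the difference of responses 5 to 14 and 1 to 6. A single lower response was left when the library omitted was replicate 2 of control vehicle, of control LPS or of Dicer KO LPS, or replicate 3 of control LPS. The replicate numbers did not pair the libraries (median correlation of same-numbered deviations -0.01, over 0.1 in 4 of 18 pairs, and 4 of 12 libraries closest to their own number), and with the replicate block 17 and 11, 16 and 11, 29 and 17, 35 and 19, and 9 and 2 members were called higher and lower. The cause of these shifts was not tested. Depth limits the members of few reads, such as Cox6a2, Cox7a1 and Atp5s.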
